A study of Mus musculus with 6 samples.

Results

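The constitutive proteasome subunits were the 36 genes, of 18193 genes measured, whose symbols follow the Psma, Psmb, Psmc or Psmd number pattern, leaving out the inducible subunits Psmb8, Psmb9 and Psmb10. Where several probe sets read a gene, the one with the highest mean level was taken. They comprised 8 genes of the alpha ring and 8 of the beta ring of the 20S core, 9 genes of the base and 8 of the lid of the 19S particle, and 3 chaperones that assemble the base. RNA from germinal centre B cells, isolated with magnetic beads from spleens after immunisation with sheep erythrocytes, was measured on Affymetrix mouse 430 2.0 arrays. ImHABCL6/Uchl1 mice (3 arrays) carried both ImHABCL6, which drives a tagged BCL6 from the immunoglobulin heavy chain locus, and a transgene for the deubiquitinating enzyme Uchl1. ImHABCL6 mice (3 arrays) carried the BCL6 allele alone and were the controls, so that deregulated BCL6 was common to all 6 arrays and no wild-type cells were compared. The sources used here did not give the promoter of the Uchl1 transgene, the strain or the ages. The comparison asked how the Uchl1 transgene altered expression in these cells.

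The proteasome is the protease that degrades proteins marked with ubiquitin chains. Its 20S core is a barrel of stacked rings, with alpha subunits outside, which form the gate, and beta subunits inside, some of which carry the proteolytic sites. The 19S particle caps the barrel: its base of ATPases unfolds substrates and its lid removes their ubiquitin. Activated and dividing B cells make and discard much protein, and in immune cells inducible catalytic subunits replace part of the constitutive ones.

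Values are log2 expression levels, on which a difference of 1 is a doubling, and differences are ImHABCL6/Uchl1 minus ImHABCL6. The probe set for Uchl1 read 5.96, 5.87 and 6.02 in ImHABCL6/Uchl1 cells, against 5.01, 4.999 and 5.02 in controls. One array stood apart in its distribution. On ImHABCL6/Uchl1 replicate 2 the 95th percentile of all probe sets was 10.35, against 10.55 to 10.65 on the other 5 arrays, and its 25th percentile was the highest at 4.24. Of the 15 erythroid markers measured, of 20 listed, 14 were lower in ImHABCL6/Uchl1 cells, and their mean level was 8.69, 10.36 and 9.81 on the ImHABCL6/Uchl1 arrays, against 9.9999, 10.56 and 10.96 on control arrays. The 5 B-cell markers measured averaged 11.27 to 11.55 in ImHABCL6/Uchl1 cells and 11.16 to 11.24 in controls. Among them only Pax5 had all ImHABCL6/Uchl1 values above all control values (difference 0.48), as had 718 of all 18193 genes. Cd79a (0.22), Cd22 (0.13), Ms4a1 (0.05) and Cd79b (-0.03) overlapped between the genotypes. The 6 germinal centre markers averaged 10.43 to 11.08 in ImHABCL6/Uchl1 cells and 10.65 to 10.66 in controls. Fewer cells of a type and less RNA per cell cannot be told apart in such preparations.

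Constitutive proteasome transcripts were slightly lower on average in ImHABCL6/Uchl1 cells, and this shift rested on 1 of the 3 arrays. Group means were lower for 35 of 36 genes. The share was 49.4% of all genes and 65.1% of those with a mean level of at least 9. The median log2 difference was -0.15, or 1.11-fold, against 0.0029 over all genes and -0.07 over those brighter genes. By limma's moderated test 0 of the 36 genes passed a Benjamini-Hochberg adjusted p of 0.05, as did 0% of all genes. The members' adjusted p ran from 0.983 to 0.999, and 1 of them, Psmd5, had an unadjusted p under 0.05, where 4.94% of all genes had one. The ImHABCL6/Uchl1 values all lay below the control values for 4 of the 36 genes (Psmc2, Psmc6, Psmd5 and Psmd9). This held for 5.49% of all genes and 8.99% of those with a mean level of at least 9. The exact two-sided permutation test cannot give a p below 0.1 with 3 arrays against 3.

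ImHABCL6/Uchl1 replicate 2 had the lowest level of the 6 arrays for 33 of the 36 genes, where it was the lowest for 28% of all genes, 45% of those with a mean level of at least 6 and 54.8% of those with a mean level of at least 9. The exceptions were Psmb4 and the dim Psma8 and Psmb11. For the 34 genes other than Psma8 and Psmb11, that array differed from the mean of the other 5 by -1.38 (Psmb3) to -0.14 (Psmb4), with a median of -0.53. For all genes the same median was -0.01, and for all genes with a mean level of at least 9 it was -0.25. Replicates 1 and 3 of ImHABCL6/Uchl1 each lay at or above the lowest control for 31 of the 36 genes, which held for 75.2% (replicate 1) and 72.3% (replicate 3) of all genes. ImHABCL6 replicate 1 was the highest array for 22 of the 36, against 14.3% of all genes. The 6 neutrophil markers measured were also highest on that array, with mean levels of 5.49, 5.63 and 5.21 on the ImHABCL6/Uchl1 arrays, against 6.69, 5.597 and 5.26 on control arrays. Their group means were lower in ImHABCL6/Uchl1 cells for 6 of 6 (median -0.31), none passed the adjusted threshold, and their part in the result was not tested. Averaged over the 36 genes, the level was 10.60, 10.07 and 10.60 on the ImHABCL6/Uchl1 arrays, against 10.71, 10.60 and 10.44 on the control arrays. Those means of 10.42 ± 0.31 in ImHABCL6/Uchl1 cells and 10.58 ± 0.14 in controls (SD, n = 3 each) differed by less than the spread within the ImHABCL6/Uchl1 group.

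**Figure D1:**
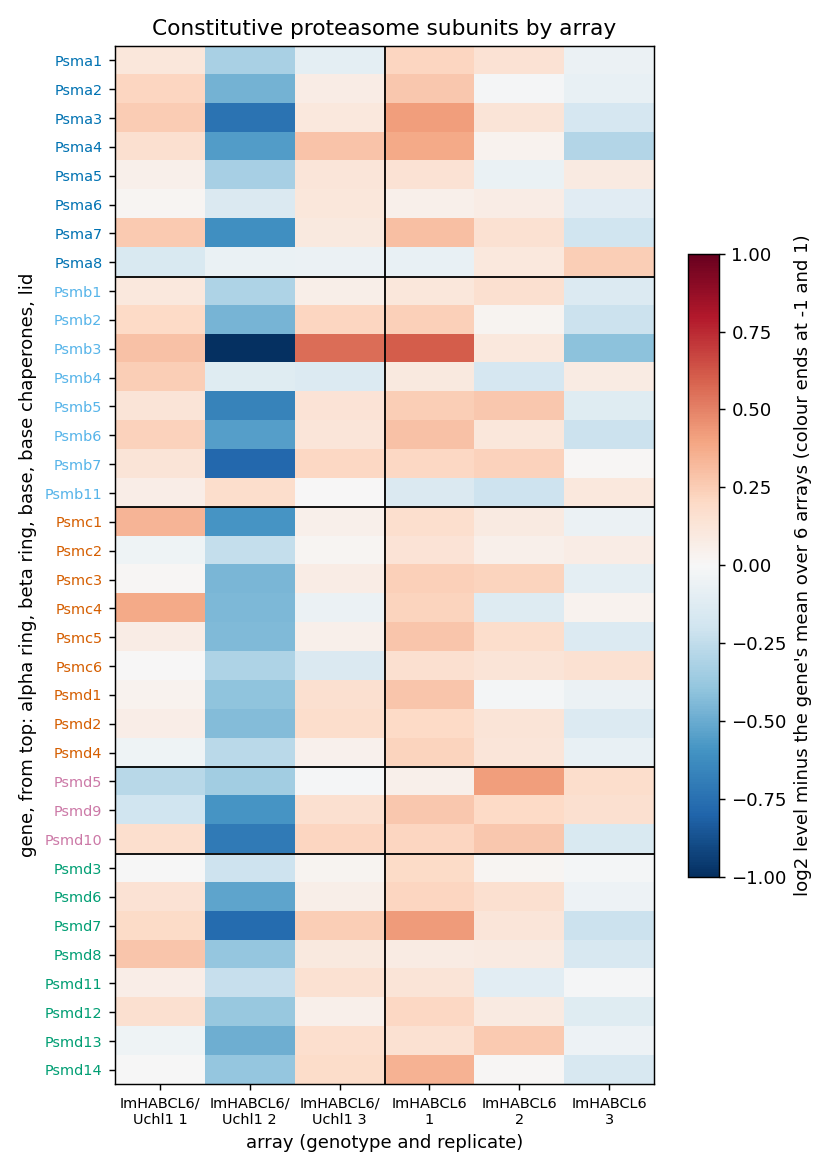
Log2 level of each of the 36 genes on each array, as the deviation from the gene's own mean over the 6 arrays (red above, blue below), with ImHABCL6/Uchl1 arrays on the left and ImHABCL6 arrays on the right. The blue column is ImHABCL6/Uchl1 replicate 2, the lowest array for 33 of 36 genes.

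Without ImHABCL6/Uchl1 replicate 2 the shift was not seen: 12 of 36 genes were lower, and the median difference was 0.04. Without ImHABCL6 replicate 1 it was -0.06, with 26 of 36 lower, and without ImHABCL6/Uchl1 replicate 1, ImHABCL6/Uchl1 replicate 3 or ImHABCL6 replicate 3 in turn it was -0.27, -0.24 and -0.24. Array weights, which gave ImHABCL6/Uchl1 replicate 2 the lowest weight (0.297), left 21 of 36 lower with a median of -0.02. They gave ImHABCL6/Uchl1 replicate 1 a weight of 0.507 and replicate 3 one of 3.3, so that group then rested mainly on replicate 3. Quantile normalization, which gives all arrays one distribution, left 30 of 36 lower with a median of -0.10. The erythroid marker score as a covariate gave a larger median of -0.42. On ImHABCL6/Uchl1 replicate 2 that score (10.36) lay within the range of the controls.

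In the alpha ring, whose subunits form the gate of the barrel, all 8 genes had lower means in ImHABCL6/Uchl1 cells, with a median difference of -0.15 and none separated from the controls. Psma1 read 11.95, 11.51 and 11.74 in ImHABCL6/Uchl1 cells, against 12.05, 11.97 and 11.77 in controls, a difference of -0.20 (SE 0.16, exact permutation p = 0.2). Psma3 read 12.25, 11.26 and 12.10 in ImHABCL6/Uchl1 cells, against 12.42, 12.12 and 11.83 in controls (difference -0.25, SE 0.27, exact permutation p = 0.6). In both genes ImHABCL6/Uchl1 replicate 2 was low and the groups overlapped, and without that array the difference of Psma3 was 0.05. Psma7 (-0.17), Psma2 (-0.13), Psma5 (-0.11) and Psma4 (-0.08) also had their lowest value on ImHABCL6/Uchl1 replicate 2. Psma6 hardly differed, with 12.61, 12.44 and 12.70 in ImHABCL6/Uchl1 cells, against 12.63, 12.66 and 12.47 in controls (difference -0.0041). Psma8, the alpha subunit of the testis, was dim, at 3.95, 4.03 and 4.04 in ImHABCL6/Uchl1 cells, against 4.02, 4.201 and 4.35 in controls. Its difference of -0.18 (SE 0.14, exact permutation p = 0.3) came from a probe set near the bottom of the scale.

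The beta ring holds the proteolytic sites, and its 3 constitutive catalytic subunits lay below all controls on 1 array only. Psmb5, the chymotrypsin-like subunit that proteasome inhibitors such as bortezomib block, read 11.26, 10.47 and 11.27 in ImHABCL6/Uchl1 cells, against 11.38, 11.40 and 11.01 in controls. Its difference was -0.27 (SE 0.24, exact permutation p = 0.5), and 0.00042 without ImHABCL6/Uchl1 replicate 2. Psmb7, the trypsin-like subunit, read 9.29, 8.38 and 9.37 in ImHABCL6/Uchl1 cells, against 9.38, 9.40 and 9.18 in controls. Replicate 2 of ImHABCL6/Uchl1 lay 0.797 below the lowest control, while replicates 1 and 3 lay among the controls. That difference was -0.30 (SE 0.26, exact permutation p = 0.5), and 0.02 without the low array. Psmb6, the caspase-like subunit, read 10.75, 9.97 and 10.64 in ImHABCL6/Uchl1 cells, against 10.82, 10.64 and 10.31 in controls (-0.13, SE 0.23, exact permutation p = 0.7).

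Psmb3, a beta subunit without catalytic activity, varied most of all 36 genes. It read 11.59, 10.16 and 11.87 in ImHABCL6/Uchl1 cells, against 11.91, 11.41 and 10.90 in controls (difference -0.20, SE 0.44). Its control values alone spanned 1.01, so the spread within each genotype exceeded the difference between them. Psmb1 (-0.09), Psmb2 (-0.03) and Psmb4 (-0.01) lay near 0. Psmb11, the beta subunit of thymic epithelium, was the 1 gene with a higher mean and was dim, at 4.202, 4.31 and 4.14 in ImHABCL6/Uchl1 cells, against 3.99, 3.92 and 4.24 in controls. The groups overlapped there (difference 0.17, SE 0.14, exact permutation p = 0.3). The inducible counterparts Psmb8 and Psmb10 differed by 0.02 (SE 0.27) and -0.00044 (SE 0.31), and Psmb9 by -0.15 (SE 0.25), with ImHABCL6/Uchl1 replicate 2 again the lowest array for all 3.

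The base of the 19S particle had a median difference of -0.17, with 9 of 9 genes lower and 2 of 9 fully separated. Of all genes 5.49% were separated in that direction, and 8.99% of those with a mean level of at least 9. Psmc6, an ATPase of the unfolding ring, read 10.97, 10.65 and 10.82 in ImHABCL6/Uchl1 cells, against 11.12, 11.09 and 11.12 in controls. All ImHABCL6/Uchl1 values lay below the narrow range of the controls, and the difference was -0.29 (SE 0.13, unadjusted p = 0.0571 and adjusted p = 0.998 by limma, exact permutation p = 0.1). Without ImHABCL6/Uchl1 replicate 2 the difference of this probe set was -0.22. Its 2 other probe sets gave -0.29 and -0.31, but neither was separated. They read 9.47, 8.72 and 9.43, and 6.72, 5.03 and 6.21, in ImHABCL6/Uchl1 cells. Controls read 9.60, 9.39 and 9.50, and 6.38, 6.27 and 6.25, so both sets were lowest on ImHABCL6/Uchl1 replicate 2. Psmc2, another ATPase of that ring, read 11.88, 11.68 and 11.94 in ImHABCL6/Uchl1 cells, against 12.05, 11.97 and 11.99 in controls. These groups were separated too, by a small gap (difference -0.17, SE 0.13, exact permutation p = 0.1), and without the low array the difference was -0.10. A second Psmc2 probe set (mean level 10.97) gave -0.30 but was not separated, and a dim one (mean level 4.37) gave 0.27. With the probe sets of Psmc2 averaged the difference was -0.07.

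Among the other ATPases, Psmc3 read 11.03, 10.56 and 11.09 in ImHABCL6/Uchl1 cells, against 11.26, 11.24 and 10.92 in controls. The groups overlapped through ImHABCL6 replicate 3 (difference -0.25, SE 0.18, exact permutation p = 0.3). Psmc5 (-0.21), Psmc1 (-0.13) and Psmc4 (-0.08) completed the ring, and Psmc1 and Psmc4 had their highest values on ImHABCL6/Uchl1 replicate 1, at 10.06 and 11.75. Of the non-ATPase base subunits, the ubiquitin receptor Psmd4 differed by -0.18, and the large scaffolds Psmd1 and Psmd2 by -0.14 and -0.13. Without ImHABCL6/Uchl1 replicate 2, 5 of the 9 base genes were lower, with a median of -0.04.

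The lid, which holds the deubiquitinase Psmd14, was lower in 8 of 8 genes with a median of -0.13 and no separated gene. Psmd13, a structural lid subunit, read 9.96, 9.52 and 10.17 in ImHABCL6/Uchl1 cells, against 10.16, 10.26 and 9.95 in controls (difference -0.24, SE 0.19, exact permutation p = 0.5). Psmd6 read 10.97, 10.29 and 10.88 in ImHABCL6/Uchl1 cells, against 11.03, 10.98 and 10.77 in controls (-0.21, SE 0.20, exact permutation p = 0.5). Psmd3 read 9.62, 9.41 and 9.65 in ImHABCL6/Uchl1 cells, against 9.81, 9.64 and 9.60 in controls (-0.12, SE 0.14, exact permutation p = 0.5). In these lid genes, as in most of the core, replicates 1 and 3 of ImHABCL6/Uchl1 lay within the range of the controls. Psmd14, which cuts ubiquitin chains off substrates as they enter, read 12.46, 12.08 and 12.65 in ImHABCL6/Uchl1 cells, against 12.81, 12.48 and 12.30 in controls (-0.13, SE 0.20). Psmd7, its partner in the lid, differed by -0.22 (SE 0.29) and Psmd12 by -0.11, while Psmd8 and Psmd11 differed by -0.0061 and -0.0052. Leaving out ImHABCL6/Uchl1 replicate 2 left 3 of 8 lid genes lower, with a median of 0.04.

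**Figure D2:**
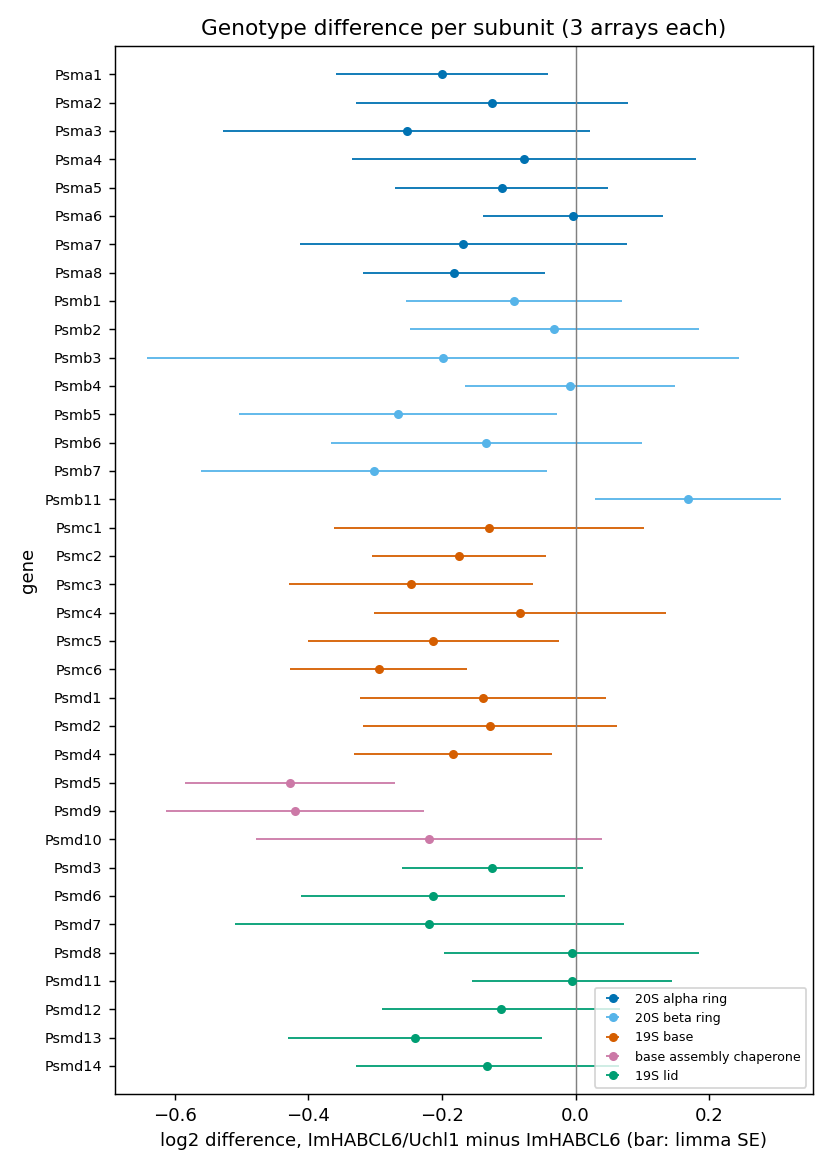
Log2 difference of each gene, ImHABCL6/Uchl1 minus ImHABCL6 (points), with limma's standard error (bars), coloured by subcomplex, from 3 arrays per genotype. Means were lower for 35 of 36 genes, and the differences of Psmd5 (-0.43) and Psmd9 (-0.42) were the farthest from 0.

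The largest differences belonged to chaperones of base assembly, which bind the ATPases before the base joins the core and are not part of the finished particle. Psmd5 read 8.98, 8.91 and 9.25 in ImHABCL6/Uchl1 cells, against 9.31, 9.67 and 9.43 in controls. All ImHABCL6/Uchl1 arrays lay below all controls, and the difference was -0.43 (SE 0.16, unadjusted p = 0.0263 and adjusted p = 0.983 by limma, exact permutation p = 0.1). Without ImHABCL6/Uchl1 replicate 2 it was -0.36. Psmd9 read 8.72, 8.33 and 9.08 in ImHABCL6/Uchl1 cells, against 9.19, 9.12 and 9.08 in controls, and was separated by a margin of 0.0019. Its difference was -0.42 (SE 0.19, adjusted p = 0.998 by limma, exact permutation p = 0.1). It was -0.23 without ImHABCL6/Uchl1 replicate 2, -0.14 with array weights and -0.12 when its 3 probe sets were averaged. Psmd10 (gankyrin) read 8.9996, 8.13 and 9.05 in ImHABCL6/Uchl1 cells, against 9.05, 9.10 and 8.68 in controls (-0.22, SE 0.26), and overlapped as most subunits did. Psmd5 and Psmd9 were singled out after their values were seen.

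Core and cap varied together from array to array, and the genotype difference of one was close to that of the other. The 16 core genes had a median difference of -0.13 and the 17 genes of base and lid -0.14, so that core minus cap was 0.0088. On single arrays the mean deviation of the core minus that of base and lid was 0.05, -0.03 and 0.03 in ImHABCL6/Uchl1 cells, against -0.0043, -0.02 and -0.03 in controls. These offsets were at most 0.05, whereas the core itself deviated by -0.44 on ImHABCL6/Uchl1 replicate 2 and by 0.21 on ImHABCL6 replicate 1. No test of core against cap was made, since the genes of a complex are not replicates. With the erythroid covariate core minus cap was -0.06. With ImHABCL6/Uchl1 replicate 2 left out, 2 of 16 core genes were lower (median 0.06).

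**Figure D3:**
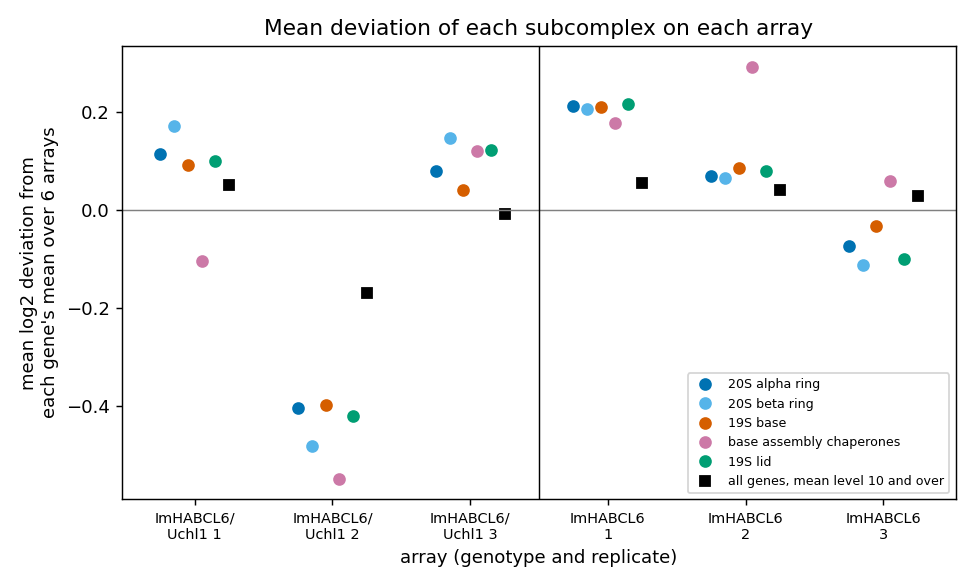
Mean log2 deviation of the genes of each subcomplex from their own means over the 6 arrays, on each array (circles), with all genes of mean level 10 and over as black squares. The alpha ring, beta ring, base and lid lie close together, at -0.41, -0.48, -0.40 and -0.42 on ImHABCL6/Uchl1 replicate 2, where all genes of that level lie at -0.17.

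**Figure D4:**
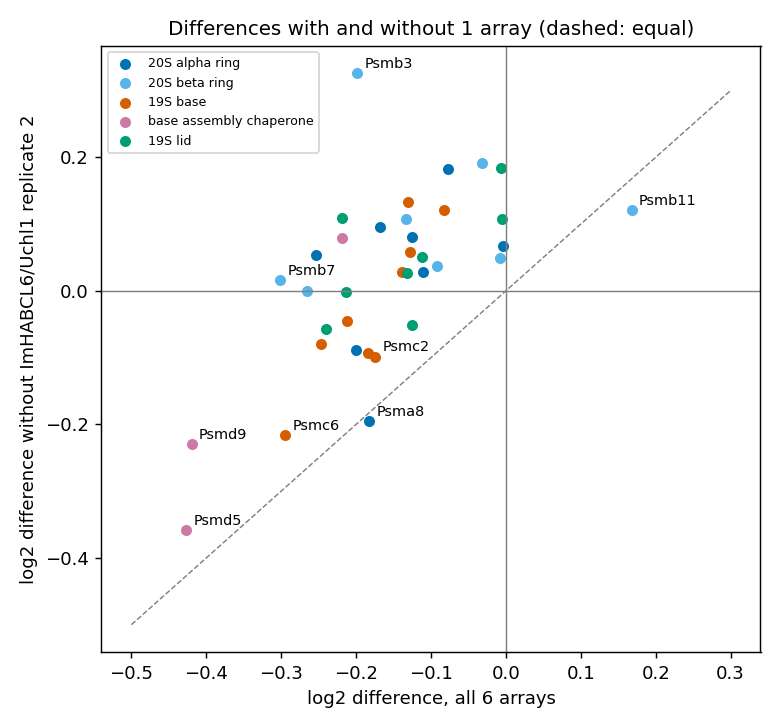
Log2 difference of each of the 36 genes without ImHABCL6/Uchl1 replicate 2 (vertical axis) against that with all 6 arrays (horizontal axis), coloured by subcomplex, with equality dashed. Most points lie above the dashed line and above 0, while Psmd5, Psmd9 and Psmc6 stay at -0.36, -0.23 and -0.22.

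The proteasome genes are spread over 16 chromosomes, and mammalian cells adjust them together, in part through the transcription factor NFE2L1, which binds antioxidant response elements when proteasome activity falls short. Promoter windows from RefSeq (GRCm38.p6, 250 bases before to 50 after the start) were found for 29 of the 36 genes, in 31 windows. The windows below are those of the gene of smallest p with a single window in each of alpha ring, beta ring, base and lid, leaving out Psma8 and Psmb11. They are shown since the subunits varied together between arrays. Capitals mark matches on either strand to the antioxidant response element core TGACNNNGC or to the CCAAT box, and the motifs do not overlap in these windows. Psma1 lies at chr7:114276067-114276366 (minus strand), Psmb5 at chr14:54617946-54618245 (minus strand), Psmc6 at chr14:45329574-45329873 (plus strand) and Psmd13 at chr7:140882144-140882443 (plus strand).
Psma1: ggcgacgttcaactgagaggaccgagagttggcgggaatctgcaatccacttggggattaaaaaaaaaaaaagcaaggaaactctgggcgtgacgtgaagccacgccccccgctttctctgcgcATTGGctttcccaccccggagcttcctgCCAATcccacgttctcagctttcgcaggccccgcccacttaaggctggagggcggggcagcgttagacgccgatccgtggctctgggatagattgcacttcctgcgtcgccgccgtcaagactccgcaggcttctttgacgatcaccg
Psmb5: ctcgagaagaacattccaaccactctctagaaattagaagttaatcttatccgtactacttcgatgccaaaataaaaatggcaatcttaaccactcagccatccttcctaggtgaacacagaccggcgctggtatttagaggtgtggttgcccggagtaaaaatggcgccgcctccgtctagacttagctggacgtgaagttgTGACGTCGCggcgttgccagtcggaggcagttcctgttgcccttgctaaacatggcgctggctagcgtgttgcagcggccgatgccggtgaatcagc
Psmc6: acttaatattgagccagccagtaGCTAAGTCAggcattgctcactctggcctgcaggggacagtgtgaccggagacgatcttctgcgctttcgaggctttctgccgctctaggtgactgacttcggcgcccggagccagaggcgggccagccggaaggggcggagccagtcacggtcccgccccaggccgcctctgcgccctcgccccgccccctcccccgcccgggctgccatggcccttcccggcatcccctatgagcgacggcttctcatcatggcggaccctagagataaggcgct
Psmd13: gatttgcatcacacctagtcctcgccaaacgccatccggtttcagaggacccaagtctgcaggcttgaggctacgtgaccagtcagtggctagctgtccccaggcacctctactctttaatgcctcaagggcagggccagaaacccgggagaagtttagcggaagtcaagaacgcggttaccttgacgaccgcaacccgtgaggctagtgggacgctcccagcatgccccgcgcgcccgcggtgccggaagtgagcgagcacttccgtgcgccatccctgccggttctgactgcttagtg

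The Psmb5 window holds one antioxidant response element core, TGACGTCGC, beginning 47 bases before the start, and Psmc6 holds one on the reverse strand (GCTAAGTCA as printed), beginning 227 bases before it. Psma1 has CCAAT boxes beginning 126 and 98 bases before the start, and the Psmd13 window has neither motif. Over the members' windows, 5 of 31 (16.1%) held the antioxidant response element core, in Psmb5, Psmb6, Psmc6, Psmd9 and Psmd12, against 12.4% of all 32851 promoter windows. A CCAAT box stood in 12 of 31 (38.7%), against 37.4% of all windows. These matches are descriptions of the letters and not measured binding sites.

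Nfe2l1 itself read 8.13, 7.41 and 8.18 in ImHABCL6/Uchl1 cells, against 8.16, 7.92 and 8.005 in controls (difference -0.12, SE 0.22). Its lowest value was on ImHABCL6/Uchl1 replicate 2. That array was the lowest for 3 of the 7 measured genes of the NFE2L1 axis. It was the lowest for 45% of all genes with a mean level of at least 6. Of the 7 measured genes of the NFE2L1 axis 6 were lower, with a median of -0.30, and none passed over all genes. The share lower was 49.4% of all genes and 59.8% of those with a mean level of at least 6. Bach1, a repressor at antioxidant response elements, read 8.16, 8.52 and 8.65 in ImHABCL6/Uchl1 cells, against 8.71, 9.10 and 9.25 in controls (-0.57, SE 0.19, limma adjusted p = 0.983). The groups were separated and the lowest array was ImHABCL6/Uchl1 replicate 1, not replicate 2. The highest was ImHABCL6 replicate 3, and the erythroid markers also averaged lowest (8.69) and highest (10.96) on these arrays. A link between Bach1 and the erythroid markers was not tested. Nfe2l2, the related activator, differed by -0.36 (SE 0.17) and was separated. Separation in that direction held for 5.49% of all genes and 8.25% of those with a mean level of at least 6.

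Other proteasome genes followed the subunits in part. The assembly factors of the core and their nuclear import factor Akirin2 were lower in 5 of 6 genes (median -0.21), with ImHABCL6/Uchl1 replicate 2 lowest in 6 of 6. Of all genes with a mean level of at least 6, 59.8% were lower and 45% were lowest on that array. Psmg2, a chaperone of the alpha ring, differed by -0.28 (SE 0.22) and Akirin2 by -0.20 (SE 0.14). Of the activators and inhibitors Psme1, Psme3, Psme4 and Psmf1, 1 (Psme1) had its lowest value on that array. Psme3, a nuclear activator of the core, was highest there, at 9.89, against 8.86 and 8.97 on the other ImHABCL6/Uchl1 arrays and 8.89, 9.45 and 9.42 on control arrays. Psmf1, an inhibitor of the core, read 8.89, 9.27 and 9.26 in ImHABCL6/Uchl1 cells, against 9.38, 9.36 and 9.46 in controls (-0.26, SE 0.15), and Psme4, a proteasome activator, differed by -0.19 (SE 0.12). Both were separated from the controls, where 8.25% of all genes with a mean level of at least 6 were separated in that direction.

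Among Sem1, a lid subunit whose symbol is outside the pattern, and proteins that dock on the cap, 5 of 6 were lower, with a median of -0.18. Usp14, a deubiquitinase bound to the base, was the exception, at 9.53, 9.96 and 9.76 in ImHABCL6/Uchl1 cells, against 9.35, 9.72 and 9.50 in controls (0.23, SE 0.17). Uchl5, the family member of Uchl1 that docks on the proteasome, read 10.50, 9.35 and 10.36 in ImHABCL6/Uchl1 cells, against 10.46, 10.38 and 10.24 in controls (-0.29, SE 0.29), with the same single low array, and Ube3c differed by -0.16 (SE 0.13). The measured shuttle factors that carry ubiquitinated proteins to the proteasome were lower in 4 of 4 (median -0.08), for example Rad23b at -0.14 and Ubqln4 at -0.10. The unfoldase Vcp (p97) and its cofactors were lower in 6 of 8 (median -0.14), led by Ubxn7 (-0.38, SE 0.16) and Faf1 (-0.26, SE 0.16). Both were separated, but for Faf1 the closest ImHABCL6/Uchl1 and control arrays both read 9.53. No gene of these lists passed the adjusted threshold. Of all genes with a mean level of at least 6, 59.8% were lower and 8.25% were separated in that direction.

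Probe sets of one gene read its transcript at different places, and those that were dim did not follow the bright ones. The 36 genes had 74 probe sets, with 17 genes read by 1 probe set and 19 by several. Of the 14 further probe sets with a mean level of at least 8, 13 were lower with the transgene (median -0.18). Of the 24 further probe sets under that level, 8 were lower and 16 higher, with a median of 0.04. The share lower also varied with level over all genes. It was 42.2% at a mean level under 4, 34.9% at 4 to 6 and 52.7% at 6 to 8. At 8 to 10 it was 65.7%, and at 10 and over 62.9%. For several genes near 0 the bright probe sets differed in size. Psma6 was read at -0.13 by its second probe set, Psmb4 at -0.11 and Psmd11 at -0.05, 0.01 and -0.20 by its next 3. The main probe sets of these 3 genes have suffixed names, which Affymetrix gives to sets that can also match other transcripts.

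**Figure D5:**
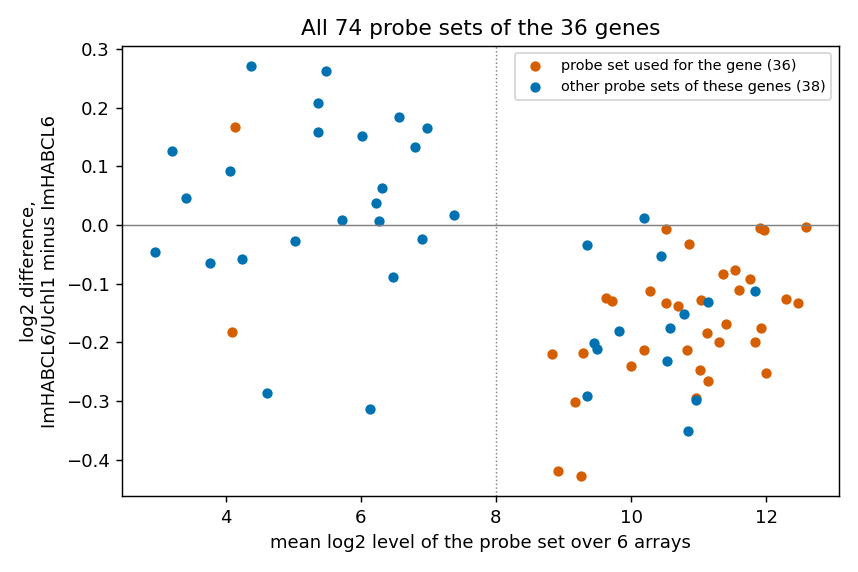
Log2 difference, ImHABCL6/Uchl1 minus ImHABCL6, of all 74 probe sets of the 36 genes against their mean log2 level, with the set used for each gene in orange and the other 38 in blue. Sets brighter than 8 (dotted line) lie almost all below 0, and dimmer sets scatter around 0.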

How the data were processed

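The log2 expression levels, with 1 value for each probe set on each array, are the authors' deposited values; the submitters' processing notes name RMA and Partek, and give neither version nor setting. RMA compresses differences of dim probe sets, and the arrays' log2 distributions were close but not identical. No detection calls came with the values, and the number of arrays limits the precision.

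GEO's platform annotation supplied gene names. Exactly 1 symbol was given for 34945 of 45101 probe sets, and 932 with several were left unnamed. ImHABCL6/Uchl1 arrays were set against ImHABCL6 arrays by limma 3.58.1 (R 4.3.3; lmFit, eBayes) over 18193 genes, taking for each gene its brightest probe set, with no filter and Benjamini-Hochberg adjustment over all genes. Single genes also had an exact two-sided permutation test. The design text gives separate mice per genotype.

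The members and lists were chosen with earlier results of these data known. Full values were given for the 3 genes of smallest p in each of alpha ring, beta ring, base and lid, for genes with a higher mean and for Psmb5, Psmb6 and Psmb7, and for up to 2 genes of smallest p in each further list. Other genes were added after their values were seen. On simulated data for this comparison, with 18193 genes, limma recovered 5% of changes of 0.5 and 76.1% of changes of 1 (log2). Alternatives were other probe set choices, a filter on dim genes, other normalizations, other variance models, weights for arrays, the replicate number as a block, an erythroid covariate and leaving out each array. Figures were drawn with matplotlib 3.10.9.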

Additional observations from a re-analysis of the deposited data

How the results depend on the processing

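No alternative gave a gene or a proteasome member an adjusted p under 0.05 by limma. An unadjusted p under 0.05 was found for 898 genes with the settings of the report, and for 229 (mean level at least 9) to 2938 (erythroid covariate) under the alternatives. Of the members, 1 had one with the settings of the report, 17 of 36 with the erythroid covariate and 0 to 2 under the other alternatives. The replicate block (same-numbered arrays across genotypes) cannot move the differences, since each number occurs in both genotypes, and alters only their p. The median of all members thus stayed at -0.15 with 35 of 36 lower. Deviations of same-numbered arrays correlated at 0.43, 0.19 and -0.26. With 3 arrays per genotype these values cannot decide whether the numbers pair the samples, and the labels do not say. Leaving out each array gave 12 to 35 members lower, 4 to 13 fully separated, and medians of -0.27 to 0.043 for all members, -0.22 to 0.060 for the core, -0.29 to -0.045 for the base and -0.22 to 0.039 for the lid, with core minus cap at 0.00092 to 0.049. The positive medians of all members, core and lid came without ImHABCL6/Uchl1 replicate 2. Over the same settings Psma3 ran from -0.44 to 0.053, Psmb5 from -0.40 to 0.00042, Psmb6 from -0.28 to 0.11 and Psmb7 from -0.48 to 0.016, each positive without that array alone. The 13 separated members were found without ImHABCL6 replicate 3, where 9.42% of all genes were separated in that direction. Over the arrays left out in turn, that share of all genes ran from 7.27% to 13.6%. Without ImHABCL6/Uchl1 replicate 2 it was 11.3%, and 4 of 36 members were separated. Array weights gave 21 members lower, a lid median of 0.023 and Psmb6 at 0.019. The erythroid covariate gave -0.42 for all members, -0.44 for the core, -0.42 for the base and -0.062 for core minus cap. Fully separated members numbered 2 with the mean of all probe sets, 2 without suffixed probe sets and 2 without Psma8, Psmb11 and the chaperones, against 4. The shares of all genes were 5.07% with the mean of all probe sets, 5.36% without suffixed probe sets and 5.49% with the settings of the report. The mean of all probe sets turned Psmd13 (0.021), and leaving out suffixed probe sets turned Psma3 (0.18) and Psmd13 (0.15). The cause was not tested. Of 203 values of 13 named members under alternatives, 195 kept their direction. Many of these could not change: the filters on dim genes, the other variance model and the replicate block leave a gene's difference as it is. Averaging probe sets does so for genes with a single probe set. The count is therefore no measure of stability. A filter at a mean level of at least 9, added after seeing the data, kept 32 members with a median of -0.14, where all 3716 genes had -0.07 and 65.1% lower.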

Other observations

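The direction of a genotype difference varied with the level of a gene over the whole table. Of the 2796 genes with a mean level under 4, 42.2% were lower in ImHABCL6/Uchl1 cells, and of the 5598 genes at 4 to 6 it was 34.9%. The share was 52.7% of 3997 genes at 6 to 8, 65.7% of 3820 at 8 to 10 and 62.9% of 1982 at 10 and over. On ImHABCL6/Uchl1 replicate 2 the median deviation of a gene from its own mean was 0.08, 0.14, -0.07, -0.23 and -0.19 in these 5 classes, from dim to bright. On ImHABCL6/Uchl1 replicate 1 it was -0.06, -0.07, 0.07, 0.17 and 0.13.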
